A study of Mus musculus with 48 samples.

Results

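The expression of 8 genes of collecting duct principal cells was followed in cultured mouse kidney slices: the water channel genes Aqp2, Aqp3 and Aqp4, the antidiuretic vasopressin receptor gene Avpr2, the epithelial sodium channel genes Scnn1a, Scnn1b and Scnn1g, and the steroid dehydrogenase gene Hsd11b2. The genes were chosen by name, and each symbol matched 1 of the 55487 gene identifiers in the count table, so the set held 8 genes of 55487. The mice were males of 2 inbred strains, C57BL/6J and DBA/2J, the founders of the BXD panel of recombinant inbred lines, and their polyadenylated RNA was sequenced. The 48 libraries formed 16 groups of 3, with the same 8 conditions in each strain. Control slices, slices treated with tunicamycin (an inhibitor of N-linked protein glycosylation) and slices treated with cyclosporin A (a calcineurin inhibitor and transplant drug) were collected at 6 h and at 24 h. Normoxia slices, labelled as the ischemia model, and normoxia-hyperoxia slices, labelled as the reperfusion model, were collected at 24 h. The controls carried the nephrotoxicity label of the drug libraries, and no control carried the ischemia or reperfusion label. Where oxygen models are compared with controls, oxygen and any other difference between these labelled sets cannot be told apart. The age of the mice, the doses of both drugs, the time of the oxygen switch and the oxygen given to controls were not given in the sources used here. The labels number biological replicates without saying whether they came from separate mice, so p-values measure only the spread between these samples, which may be technical.

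Principal cells line the collecting duct with intercalated cells and set the final water and salt content of urine. Vasopressin binds its receptor on the blood side of the cell, and the cAMP that follows moves aquaporin-2 to the luminal membrane and raises Aqp2 transcription, while aquaporin-3 and aquaporin-4 let water leave through the basolateral membrane. Aldosterone acts through the mineralocorticoid receptor to raise sodium entry through the channel built from the alpha, beta and gamma subunits that Scnn1a, Scnn1b and Scnn1g encode. The enzyme encoded by Hsd11b2 inactivates glucocorticoids in the same cells and keeps the mineralocorticoid receptor selective for aldosterone.

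Positions are those of the GRCm38 assembly, and Aqp4 has the identifier ENSMUSG00000024411. Aqp2 (ENSMUSG00000023013) spanned chr15:99579055-99584547 and Aqp3 (ENSMUSG00000028435) chr4:41092722-41098183. Avpr2 (ENSMUSG00000031390) spanned chrX:73892102-73895502 and Hsd11b2 (ENSMUSG00000031891) chr8:105518755-105523988. Scnn1a (ENSMUSG00000030340) spanned chr6:125320659-125344943, and Scnn1b (ENSMUSG00000030873, chr7:121865038-121918514) and Scnn1g (ENSMUSG00000000216, chr7:121734479-121768475) were neighbours on chromosome 7. Avpr2 shared 2347 exonic bases with Arhgap4 on the opposite strand, so without a known strand setting of the counting its reads cannot be told apart from those of Arhgap4 there. Scnn1b and Aqp4 overlapped Cog7 and AC133525.2 on the opposite strand with 0 shared exonic bases.

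RefSeq promoter sequences of GRCm38.p6 were at hand for 5 of the 8 genes, and 3 are shown here because Aqp2 and Avpr2 rose together in normoxia while Scnn1g did not pass the test, as described below. Each run is the 250 bases before the transcription start of the RefSeq annotation, which for Aqp2 lies 1 base after the GENCODE start given above, 5′ to 3′ on the gene's strand, at chr15:99578806-99579055 for Aqp2, chrX:73891852-73892101 for Avpr2 and chr7:121734229-121734478 for Scnn1g. Capitals mark matches on either strand to CGTCA (the core of the cAMP response element), GATA, ACGTG (the hypoxia response core) and TGTTCT (part of the steroid receptor element).
Aqp2: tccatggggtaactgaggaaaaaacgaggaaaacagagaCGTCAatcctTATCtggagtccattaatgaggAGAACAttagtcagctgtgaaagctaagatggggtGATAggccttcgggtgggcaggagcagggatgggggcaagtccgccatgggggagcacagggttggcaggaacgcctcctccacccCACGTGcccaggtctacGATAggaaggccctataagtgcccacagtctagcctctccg
Avpr2: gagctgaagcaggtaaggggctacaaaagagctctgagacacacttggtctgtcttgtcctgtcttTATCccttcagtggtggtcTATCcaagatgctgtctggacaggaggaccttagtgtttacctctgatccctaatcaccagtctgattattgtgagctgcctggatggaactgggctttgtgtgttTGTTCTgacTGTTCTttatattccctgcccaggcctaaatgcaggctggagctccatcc
Scnn1g: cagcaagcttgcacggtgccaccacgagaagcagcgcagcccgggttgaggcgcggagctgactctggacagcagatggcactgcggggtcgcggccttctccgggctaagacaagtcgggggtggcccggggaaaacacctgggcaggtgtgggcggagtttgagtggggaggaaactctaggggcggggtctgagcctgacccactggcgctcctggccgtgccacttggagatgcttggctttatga
The Aqp2 window held matches to all 4 motifs, with CGTCA at position -211 from the start, 3 GATA matches, 1 TGTTCT match, and 2 ACGTG matches that overlap as a palindrome at positions -58 and -57. The Avpr2 window held 2 GATA and 2 TGTTCT matches, the Scnn1g window held none, and the Aqp3 and Scnn1b windows held 1 GATA match each. Among all 32851 RefSeq promoter windows of this length, 17.8% held CGTCA, 53.6% GATA, 16.6% ACGTG and 16.1% TGTTCT. These matches describe letters only.

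The smallest library, DBA/2J normoxia-hyperoxia replicate 2, held 5619309 counts, the next smallest 12384733 and the largest 25137581. Mitochondrial genes took 3.11% to 25.65% of the counts of a library, with group means of 15.4% at 6 h, 6.8% at 24 h, 23.9% in normoxia and 14.1% in normoxia-hyperoxia for C57BL/6J. For DBA/2J the means were 8.2%, 3.5%, 12.3% and 13.7% in the same order. This share was not tested as a part of any difference below. Levels are given as CPM after TMM scaling over all 48 libraries. Where library values are said not to overlap, this is by that scaling. All 8 genes passed the filter on low counts in every comparison. In bulk tissue, fewer principal cells, less RNA per cell and RNA of the same genes from other cells cannot be told apart.

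Between genes, levels were compared as CPM per kilobase of exon. In C57BL/6J control slices at 6 h, Aqp3 (109), Hsd11b2 (103) and Scnn1a (98.7) were highest, followed by Scnn1b (66.7), Aqp2 (63.8) and Scnn1g (59.2). Avpr2 (4.89) and Aqp4 (0.283) were far lower in those slices. At 24 h in C57BL/6J control slices, Aqp3 led at 41.1 CPM per kilobase and Hsd11b2 had moved below all 3 channel subunits and Aqp2, to 16.8. In C57BL/6J normoxia slices, Hsd11b2 (204) and Aqp2 (167) stood above Aqp3 (96.6), Scnn1a (83.4), Scnn1b (45.4) and Scnn1g (36.7). Normoxia-hyperoxia slices of that strain kept Hsd11b2 first at 242 CPM per kilobase, with Aqp3 at 183 and Aqp2 at 163.

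Across the 16 groups, Aqp4 had the widest range of mean CPM, 71.3-fold from lowest to highest, and Hsd11b2 the next at 18.5-fold. The other 6 genes spanned 4.26-fold (Scnn1g) to 7.1-fold (Aqp2). The highest group was C57BL/6J normoxia for Aqp2, Aqp4 and Avpr2, and C57BL/6J normoxia-hyperoxia for the other 5 genes. When the 16 groups were ordered by level, only 1 to 4 of the 15 neighbouring pairs had library values that did not overlap. Neighbours in such an order are the closest groups by construction, so their overlap does not show that they were equal.

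**Figure D1:**
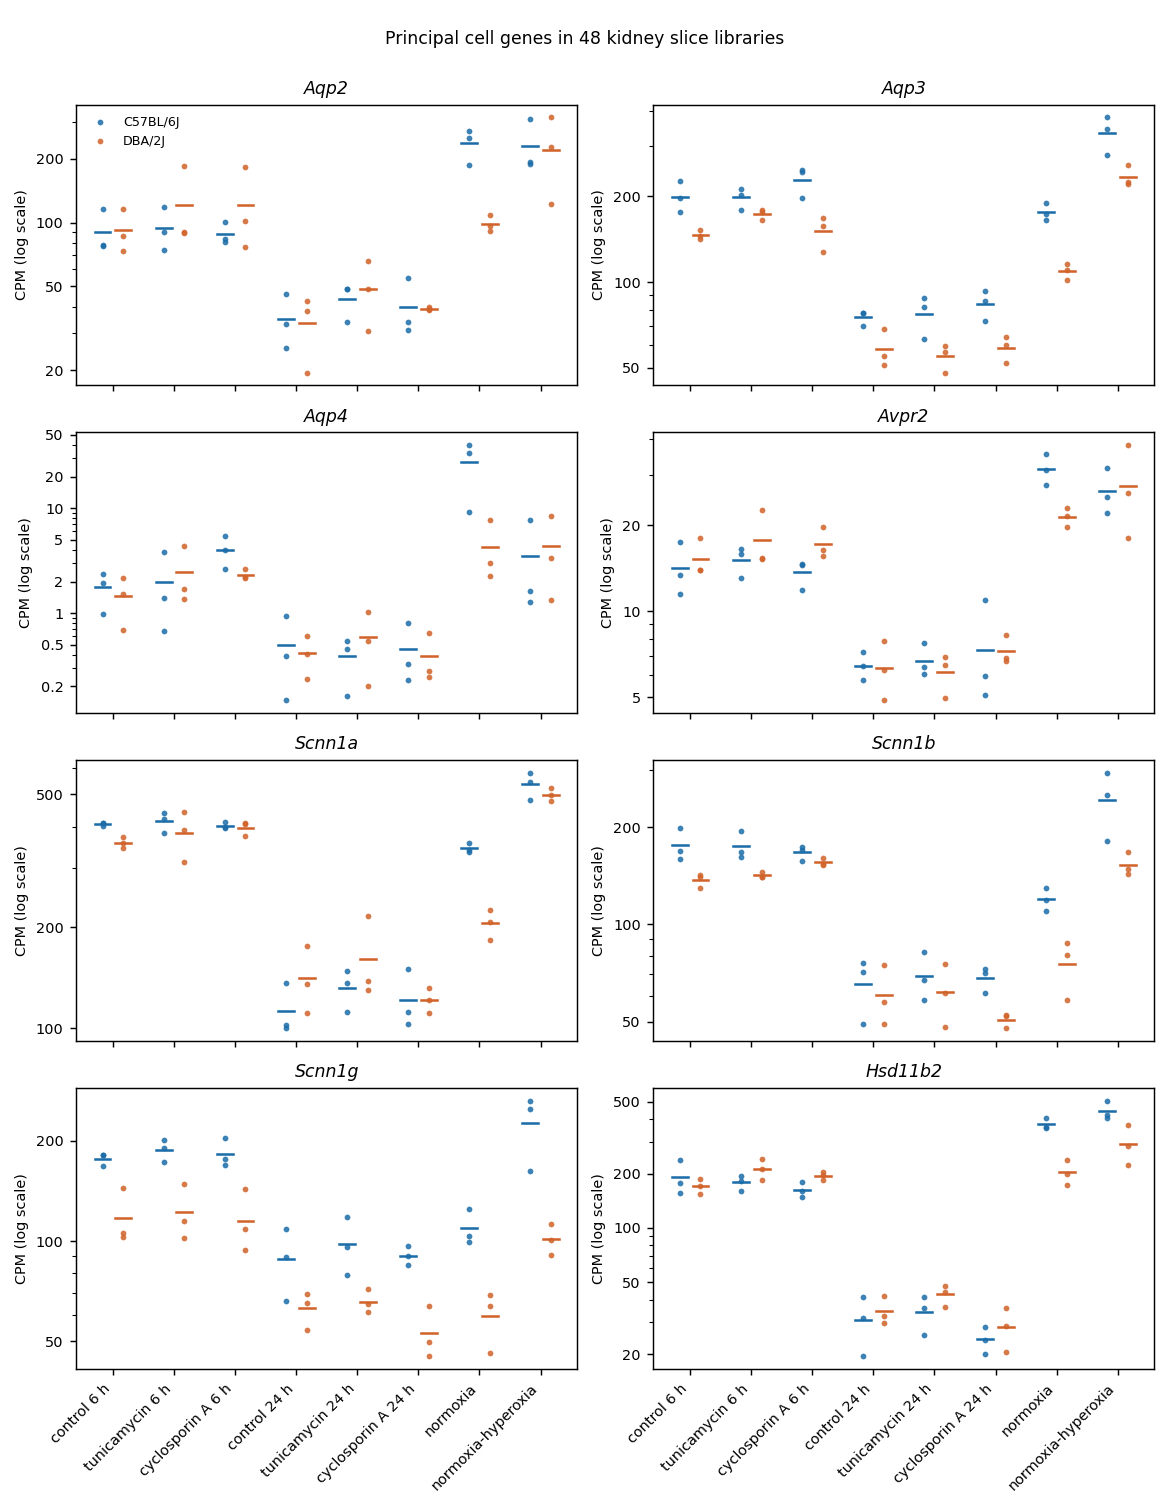
CPM on a log axis for each of the 8 genes in all 48 libraries, with the conditions along the horizontal axis, 1 point per library, the strain by colour and the group mean as a bar. All 8 genes were lower in the 24 h controls than in the 6 h controls of each strain, and Aqp4 reached 39.8 CPM in 1 C57BL/6J normoxia library.

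Between 6 h and 24 h in culture, all 8 principal cell genes fell in control slices. They were called by edgeR's quasi-likelihood test with Benjamini-Hochberg adjustment over all genes at an adjusted p under 0.05, on the mean of the strain effects, the criterion used throughout. Genes called lower in this comparison made up 37.4% of all genes tested, and those called in either direction 72%. The library values of 24 h lay below all those of 6 h in both strains for all 8 genes, a separation in that direction that 27.3% of all genes showed. With CPM by total counts alone, the Aqp4 values of C57BL/6J overlapped. The median log2 change of the 8 genes was -1.41, beside -0.02 for all genes. Against the 24 h controls, normoxia slices had 7 of the 8 genes higher, with 42.4% of all genes called higher, and Scnn1g was the exception. Against the same 24 h controls, normoxia-hyperoxia slices had all 8 genes higher, with 34.1% of all genes called higher. The median log2 change was 1.60 in normoxia and 2.08 in normoxia-hyperoxia, beside 0.05 and 0.00 for all genes. The libraries did not overlap, upward in both strains, for 6 of the 8 genes in normoxia (32.1% of all genes) and for 8 of 8 in normoxia-hyperoxia (23.4% of all genes). These comparisons share their 24 h control libraries, and the first shares them too, in the opposite role.

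Set side by side directly, normoxia-hyperoxia slices exceeded normoxia slices in 6 of 8 genes, with 37% of all genes called higher: Aqp2, Aqp3, Scnn1a, Scnn1b, Scnn1g and Hsd11b2. For 4 of them, Aqp3 and the sodium channel genes, the libraries did not overlap in either strain (26.6% of all genes). Against the 6 h controls, normoxia slices had Aqp2, Aqp4, Avpr2 and Hsd11b2 higher and Aqp3, Scnn1a, Scnn1b and Scnn1g lower, with 32.9% of all genes called in each direction. The libraries did not overlap in either strain for Aqp4 and Avpr2 upward (22.3% of all genes) and for the 3 sodium channel genes downward (22.9%). So by TMM-scaled CPM, Aqp4 and Avpr2 stood above their 6 h level in normoxia in both strains and the 3 sodium channel subunits below it. Aqp2 stood above its 6 h level in C57BL/6J and overlapped it in DBA/2J. With CPM by total counts alone, the DBA/2J normoxia and 6 h values overlapped for both Aqp4 and Avpr2.

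**Figure D2:**
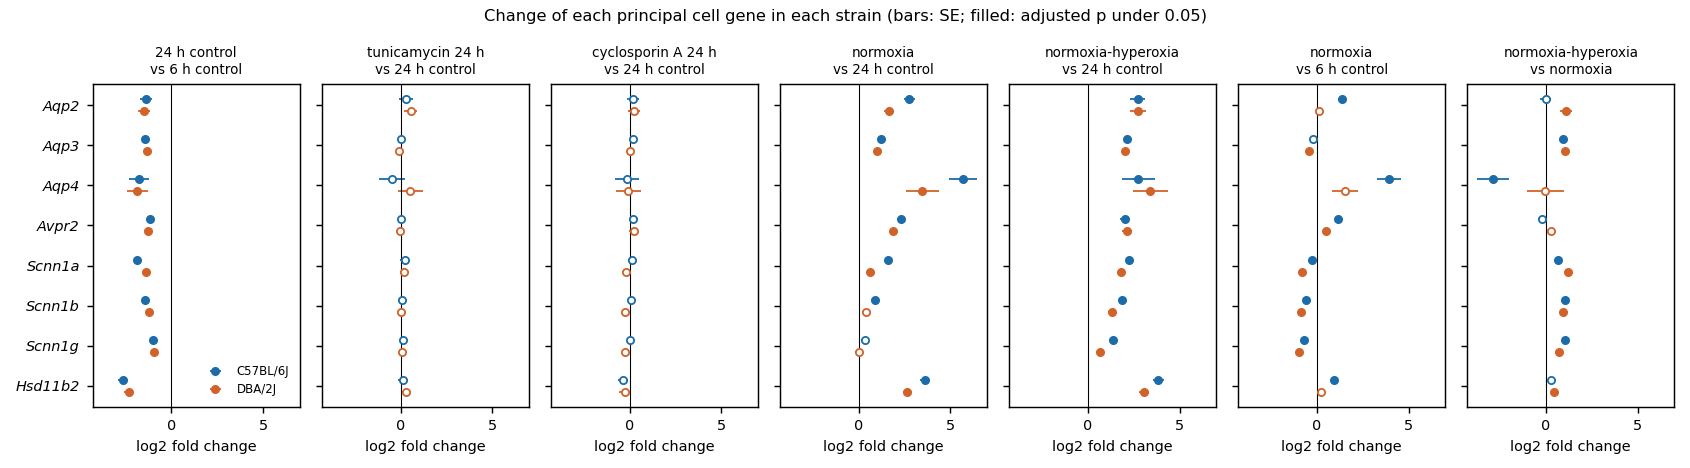
Log2 change of each of the 8 genes in each strain, by colour, in 7 comparisons, with bars for the standard error and filled points where the edgeR adjusted p was under 0.05. In normoxia against 24 h controls the points run from 0.00 for Scnn1g in DBA/2J to 5.68 for Aqp4 in C57BL/6J, and the points of both 24 h drug panels are open.

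Aqp2, the vasopressin-regulated luminal water channel, stood at 116, 77.5 and 78.2 CPM in the C57BL/6J 6 h controls and at 25.6, 46.1 and 33.1 CPM in the 24 h controls. In C57BL/6J normoxia it stood at 187, 272 and 251 CPM, and in normoxia-hyperoxia at 189, 310 and 194 CPM. All 6 of these oxygen-model libraries lay above every C57BL/6J control library, and the normoxia and normoxia-hyperoxia values of that strain overlapped. In DBA/2J, Aqp2 stood at 86.4, 116 and 73.4 CPM at 6 h, 19.5, 38.1 and 42.5 CPM at 24 h, 91.4, 109 and 95.9 CPM in normoxia, and 314, 227 and 123 CPM in normoxia-hyperoxia. The DBA/2J normoxia libraries thus fell within the range of that strain's 6 h controls. Over both strains, Aqp2 fell from 6 h to 24 h by 1.44 on the log2 scale (SE 0.22, edgeR adjusted p = 9.47e-05), and was 4.61-fold higher in normoxia than in 24 h controls (log2 2.2, SE 0.21, edgeR adjusted p = 2.86e-06). Between normoxia-hyperoxia and normoxia, the C57BL/6J values overlapped (log2 -0.02, SE 0.31, edgeR adjusted p = 0.964), while all DBA/2J normoxia-hyperoxia libraries lay above all DBA/2J normoxia libraries (log2 1.08, SE 0.31, edgeR adjusted p = 0.0106). The difference between the strains did not pass the interaction test (edgeR adjusted p = 0.11). The mean over both strains was 0.53 (SE 0.22, edgeR adjusted p = 0.0486), and this call was lost in 11 of the 12 fits that left out 1 library, with adjusted p up to 0.163. The exception was the fit without DBA/2J normoxia-hyperoxia replicate 3 (edgeR adjusted p = 0.00357).

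Aqp3 encodes a basolateral water channel that also carries glycerol. In C57BL/6J it stood at 197, 226 and 176 CPM at 6 h, 69.9, 77.9 and 77.7 CPM at 24 h, 166, 189 and 174 CPM in normoxia, and 344, 280 and 379 CPM in normoxia-hyperoxia. In DBA/2J it stood at 142, 145 and 152 CPM at 6 h, 51.1, 55.2 and 68.2 CPM at 24 h, 102, 110 and 116 CPM in normoxia, and 258, 222 and 225 CPM in normoxia-hyperoxia. In both strains the 24 h controls were lowest and the normoxia-hyperoxia libraries highest, and neither overlapped any other of these groups. Aqp3 rose from 24 h controls to normoxia by 1.11 on the log2 scale (SE 0.07, edgeR adjusted p = 4.34e-10), and from normoxia to normoxia-hyperoxia the difference was 0.98 (SE 0.08, edgeR adjusted p = 1.18e-08).

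The count ratio of Aqp3 to Aqp2 in the same library does not depend on the scaling between libraries. In C57BL/6J its log2 value was 1.44, 0.76 and 1.23 in the 24 h controls and -0.17, -0.52 and -0.53 in normoxia, and in DBA/2J it was 1.39, 0.53 and 0.68 against 0.15, 0.01 and 0.27. Every normoxia library lay below every 24 h control of its strain, so Aqp2 gained on Aqp3 in normoxia. The mean difference was -1.14 on the log2 scale (exact two-sided permutation test within strains, p = 0.005, the smallest the 400 arrangements can give; Benjamini-Hochberg adjusted p = 0.012 over the 12 ratio tests). The same ratio differed by 0.08 between 24 h and 6 h controls (exact permutation adjusted p = 0.725). In normoxia-hyperoxia it differed by -0.63 from 24 h controls and by 0.50 from normoxia, neither past the test (exact permutation adjusted p = 0.09 and 0.193). The difference from normoxia was 0.97 in C57BL/6J and 0.04 in DBA/2J. Without DBA/2J normoxia-hyperoxia replicate 3 the difference from 24 h controls was -0.80 and passed (exact permutation adjusted p = 0.0375).

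Aqp4, the second basolateral water channel, was close to the detection limit in control slices. Its counts were 2 to 20 in the C57BL/6J 24 h libraries and 5 to 10 in those of DBA/2J, or 0.938, 0.391 and 0.147 CPM and 0.237, 0.41 and 0.61 CPM. In C57BL/6J normoxia it reached 9.27, 33.8 and 39.8 CPM, from 196 to 725 counts, and in DBA/2J normoxia 7.64, 2.99 and 2.26 CPM. All normoxia libraries lay above all controls of their strain, at 6 h (0.984, 2.37 and 1.93 CPM for C57BL/6J, with 2.16, 1.53 and 0.684 for DBA/2J) and at 24 h. With CPM by total counts alone, DBA/2J normoxia overlapped the 6 h controls. The log2 difference between normoxia and 24 h controls was 4.58 (SE 0.59, edgeR adjusted p = 3.63e-05). Normoxia-hyperoxia values were 1.64, 7.64 and 1.27 CPM for C57BL/6J, and for DBA/2J 8.45, 3.32 and 1.32 CPM, above the 24 h controls in each strain (log2 3.09, SE 0.66, edgeR adjusted p = 0.00143). In C57BL/6J, Aqp4 was lower in normoxia-hyperoxia than in normoxia by -2.89 on the log2 scale (edgeR adjusted p = 0.0192), with no overlap between the groups and 30.5% of all genes called lower there. In DBA/2J the same difference was -0.03 (edgeR adjusted p = 0.98), and the difference between the strains did not pass the interaction test (edgeR adjusted p = 0.174). Over both strains it was -1.46 (SE 0.66, edgeR adjusted p = 0.073), so this call depends on the fit: it was made by DESeq2 (adjusted p = 0.0295), by the single edgeR fit of all 48 libraries (-1.45, adjusted p = 0.00535), by edgeR with the replicate number as a block (-1.59, adjusted p = 0.00803) or with no filter on low counts (-1.46, adjusted p = 1.93e-30), and by edgeR without C57BL/6J normoxia replicate 1, C57BL/6J normoxia-hyperoxia replicate 2 or DBA/2J normoxia-hyperoxia replicate 1 (adjusted p from 0.023 to 0.0407). Without C57BL/6J normoxia-hyperoxia replicate 2, the highest library of its group, the change against 24 h controls was 2.44 (edgeR adjusted p = 0.00185).

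Avpr2 encodes the receptor that starts the vasopressin response. In C57BL/6J it stood at 17.5, 11.5 and 13.4 CPM at 6 h, 6.42, 5.74 and 7.19 CPM at 24 h, 27.6, 35.6 and 31.2 CPM in normoxia, and 22.1, 31.7 and 25.2 CPM in normoxia-hyperoxia. In DBA/2J it stood at 13.9, 18 and 14 CPM, 4.88, 6.24 and 7.87 CPM, 19.7, 21.6 and 22.9 CPM, and 38.1, 26 and 18 CPM in the same order. Of these groups, the 24 h controls were lowest and normoxia exceeded both control groups in each strain without overlap, while normoxia and normoxia-hyperoxia overlapped. With CPM by total counts alone, DBA/2J normoxia overlapped the 6 h controls. Avpr2 rose 4.21-fold from 24 h controls to normoxia (log2 2.07, SE 0.11, edgeR adjusted p = 4.67e-11) and stood above its 6 h level there (log2 0.80, SE 0.11, edgeR adjusted p = 9.13e-06). Normoxia-hyperoxia and normoxia differed by 0.02 (SE 0.16, edgeR adjusted p = 0.917). Arhgap4, whose exons overlap those of Avpr2, had mean levels in C57BL/6J of 22.1 CPM at 6 h, 12.3 CPM at 24 h, 22.9 CPM in normoxia and 22.5 CPM in normoxia-hyperoxia. It was thus lowest in the same group as Avpr2, and its part in the Avpr2 counts was not tested.

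Scnn1a, which encodes the pore-forming alpha subunit, stood at 411, 401 and 411 CPM at 6 h in C57BL/6J, 99.9, 136 and 102 CPM at 24 h, 357, 340 and 336 CPM in normoxia, and 545, 481 and 578 CPM in normoxia-hyperoxia. In DBA/2J it stood at 357, 372 and 344 CPM, 111, 135 and 176 CPM, 183, 208 and 226 CPM, and 478, 496 and 520 CPM in the same order. None of these 4 groups overlapped another within a strain, and the order from lowest to highest was 24 h control, normoxia, 6 h control and normoxia-hyperoxia in both. With CPM by total counts alone, DBA/2J normoxia overlapped the 24 h controls. Scnn1a was 1.12 higher on the log2 scale in normoxia than in 24 h controls (SE 0.11, edgeR adjusted p = 6.88e-07), and 2.03 higher in normoxia-hyperoxia (SE 0.11, edgeR adjusted p = 2.82e-09).

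Scnn1b and Scnn1g, the beta and gamma subunits, moved less in normoxia. In C57BL/6J, Scnn1b stood at 199, 169 and 159 CPM at 6 h, 49, 76.1 and 71.1 CPM at 24 h, 130, 119 and 110 CPM in normoxia, and 252, 181 and 294 CPM in normoxia-hyperoxia. In DBA/2J it stood at 140, 142 and 130 CPM, 49, 57.6 and 74.7 CPM, 58.2, 80.5 and 87.8 CPM, and 148, 168 and 143 CPM in the same order. The DBA/2J normoxia libraries of Scnn1b overlapped the 24 h controls, and the C57BL/6J ones did not. Over both strains Scnn1b rose by 0.64 on the log2 scale in normoxia (SE 0.15, edgeR adjusted p = 0.00182), with 0.88 in C57BL/6J and 0.41 in DBA/2J.

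Scnn1g stood at 182, 181 and 168 CPM at 6 h in C57BL/6J, 66, 109 and 89.7 CPM at 24 h, 125, 99.5 and 104 CPM in normoxia, and 264, 163 and 250 CPM in normoxia-hyperoxia. In DBA/2J it stood at 106, 144 and 103 CPM, 54, 69.4 and 65.3 CPM, 46.2, 68.7 and 63.7 CPM, and 90.9, 113 and 101 CPM in the same order. Its normoxia and 24 h control values overlapped in both strains, and the difference was 0.16 on the log2 scale (SE 0.14, edgeR adjusted p = 0.301). In normoxia-hyperoxia, Scnn1g was 1.02 higher than in 24 h controls (SE 0.15, edgeR adjusted p = 7.3e-05), with no overlap in either strain.

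The balance of the 3 subunits was read from count ratios within each library. The log2 ratio of Scnn1g to Scnn1b was 0.43, 0.51 and 0.33 in the C57BL/6J 24 h controls and -0.06, -0.26 and -0.07 in normoxia, and in DBA/2J it was 0.14, 0.27 and -0.19 against -0.33, -0.23 and -0.46. Each normoxia library was below each 24 h control of its strain. The mean difference was -0.48 for normoxia and -0.60 for normoxia-hyperoxia (exact permutation test, adjusted p = 0.012 each). From 6 h to 24 h the ratio of Scnn1g to Scnn1b had risen by 0.36 (exact permutation adjusted p = 0.0171), and this was 0.0514 without DBA/2J 6 h control replicate 1 or 3 or DBA/2J 24 h control replicate 1 or 2. The ratio of Scnn1a to Scnn1b moved the opposite way, by -0.30 from 6 h to 24 h (exact permutation adjusted p = 0.012), and then was 0.49 higher in normoxia and 0.43 higher in normoxia-hyperoxia than in 24 h controls (exact permutation adjusted p = 0.012 and 0.0171). Between normoxia-hyperoxia and normoxia, the ratios to Scnn1b differed by -0.06 for Scnn1a and -0.12 for Scnn1g, neither past the test (exact permutation adjusted p = 0.682 and 0.234). These means join unlike strain values, which were not tested apart. For Scnn1a they were -0.36 in C57BL/6J and 0.24 in DBA/2J, and for Scnn1g 0.02 and -0.25. In C57BL/6J the Scnn1a to Scnn1b ratios did not overlap, at 1.11, 1.41 and 0.98 in normoxia-hyperoxia and 1.46, 1.51 and 1.62 in normoxia. So in both oxygen models the alpha subunit gained and the gamma subunit lost relative to beta against the 24 h controls they share.

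**Figure D3:**
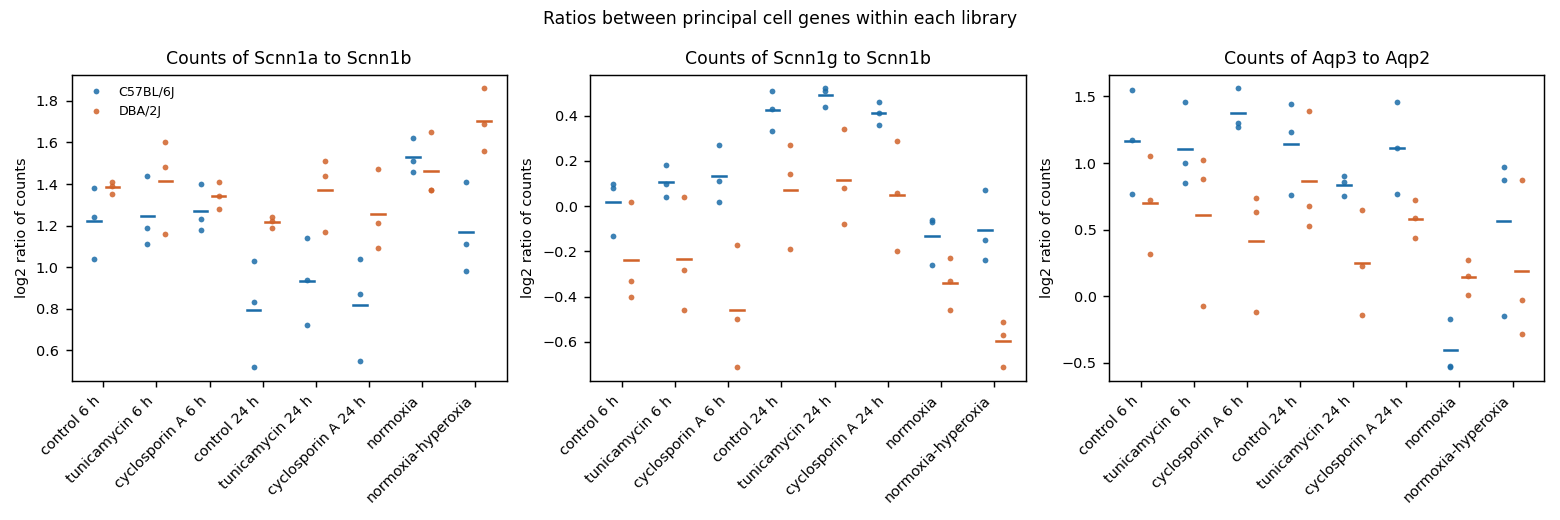
Log2 count ratio of Scnn1a to Scnn1b, Scnn1g to Scnn1b and Aqp3 to Aqp2 in each library of the 8 conditions, with 1 point per library, the strain by colour and a bar for the group mean. The ratio of Scnn1g to Scnn1b lies at 0.33 or above in the C57BL/6J 24 h controls and at -0.06 or below in C57BL/6J normoxia.

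Hsd11b2, the enzyme that shields the mineralocorticoid receptor from glucocorticoids, had the widest range of the 7 well-detected genes. In C57BL/6J it stood at 237, 178 and 156 CPM at 6 h, 19.5, 41.5 and 31.5 CPM at 24 h, 407, 364 and 356 CPM in normoxia, and 406, 421 and 506 CPM in normoxia-hyperoxia. In DBA/2J it stood at 186, 171 and 154 CPM, 32.3, 29.9 and 41.9 CPM, 172, 200 and 237 CPM, and 373, 285 and 222 CPM in the same order. Of these 4 groups, the 24 h controls were far below the other 3 in each strain, and in DBA/2J the normoxia values overlapped those of 6 h. Hsd11b2 was 5.58-fold lower at 24 h than at 6 h (log2 -2.48, SE 0.18, edgeR adjusted p = 1.59e-07). Against 24 h controls it was 8.71-fold higher in normoxia (log2 3.12, SE 0.18, edgeR adjusted p = 1.59e-08) and 11-fold higher in normoxia-hyperoxia (log2 3.46, SE 0.20, edgeR adjusted p = 3.46e-08). Normoxia-hyperoxia exceeded normoxia by 0.35 (SE 0.12, edgeR adjusted p = 0.0155), and this was lost without C57BL/6J normoxia-hyperoxia replicate 3 (0.28, adjusted p = 0.0544) or DBA/2J normoxia-hyperoxia replicate 1 (0.22, adjusted p = 0.0531), and with the replicate number as a block (0.34, adjusted p = 0.0661).

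In the drug comparisons, 0 of the 8 genes were called for tunicamycin or cyclosporin A at 6 h or 24 h by edgeR, and 0 by DESeq2. With the replicate number as a block, edgeR called Aqp2 for tunicamycin at 24 h (0.44, adjusted p = 0.0399). Of all genes, 1.38% were called for tunicamycin at 24 h and 0% in the other 3 drug comparisons. At an unadjusted p under 0.05, edgeR picked 281 of 16551 genes tested for tunicamycin at 6 h and 2174 of 16905 at 24 h. For cyclosporin A these were 734 of 16538 at 6 h and 1107 of 16887 at 24 h. Of the set, edgeR picked 0 genes for tunicamycin at either time and for cyclosporin A at 24 h. It picked 1 for cyclosporin A at 6 h, which was Aqp4, with a log2 change of 0.91 (SE 0.28, edgeR adjusted p = 0.751). Aqp4 stood there at 3.95, 5.47 and 2.66 CPM in C57BL/6J, and DBA/2J had 2.19, 2.64 and 2.16 CPM. The C57BL/6J values lay above all 6 h controls of that strain. In DBA/2J the lowest value with cyclosporin A and the highest 6 h control were both 2.16 CPM, and with CPM by total counts alone they were 2.13 and 2.19, so the DBA/2J groups were not separated under each scaling. The 6 h controls are shared with the tunicamycin comparison. In the same comparison the urea transporter gene Slc14a1 had log2 changes of 3.70 in C57BL/6J (edgeR adjusted p = 0.737) and 0.29 in DBA/2J. Aqp1, a water channel gene that the proximal tubule expresses as well as the medulla, had 1.11 (edgeR adjusted p = 0.737) and 0.06. The part of these genes' source cells in the Aqp4 values was not tested. The other changes of the 8 genes under a drug ran from -0.32 for Hsd11b2 with cyclosporin A at 24 h (SE 0.20) to 0.45 for Aqp4 with tunicamycin at 6 h (SE 0.44).

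The strains were furthest apart in normoxia by the number of genes called. There DBA/2J was lower than C57BL/6J in 7 of the 8 genes, with 18.5% of all genes called lower and 46.8% called in either direction, and the median log2 difference of the 8 genes was -0.73 beside 0.08 for all genes. The differences of DBA/2J from C57BL/6J were -0.66 for Scnn1a (SE 0.10, edgeR adjusted p = 8.16e-05), -0.61 for Aqp3 (SE 0.11, edgeR adjusted p = 0.000302) and -0.81 for Hsd11b2 (SE 0.17, edgeR adjusted p = 0.00156). Scnn1g differed by -0.80 (edgeR adjusted p = 0.00493) and Aqp2 by -1.18 (edgeR adjusted p = 0.0111). Scnn1b (-0.58, edgeR adjusted p = 0.0163) was lost without C57BL/6J normoxia replicate 1 (-0.51, adjusted p = 0.0604) or DBA/2J normoxia replicate 1 (-0.42, adjusted p = 0.0611). Aqp4 (-2.59, edgeR adjusted p = 0.0381) was lost in 5 of 12 fits that left out 1 library, with adjusted p in those 5 from 0.0503 to 0.113: C57BL/6J normoxia replicates 2 and 3, DBA/2J normoxia replicates 2 and 3, and DBA/2J normoxia-hyperoxia replicate 2. Without DBA/2J normoxia replicate 1 the Aqp4 difference was -3.31 (edgeR adjusted p = 0.0418). Avpr2 differed by -0.47 (SE 0.22, edgeR adjusted p = 0.103).

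In control slices few of the genes differed between strains. At 6 h, DBA/2J was lower for Aqp3 (-0.43, edgeR adjusted p = 0.0135) and Scnn1g (-0.57, edgeR adjusted p = 0.0262), with 12.7% of all genes called lower. At 24 h it was lower for Aqp3 alone (-0.36, edgeR adjusted p = 0.0371), with 8.27% of all genes called lower. These control differences were fragile: Aqp3 at 6 h was lost without C57BL/6J replicate 2 (-0.31, adjusted p = 0.0663), and Scnn1g at 6 h without any 1 of the 6 libraries compared except DBA/2J replicate 2 (adjusted p from 0.058 to 0.102). Aqp3 at 24 h was lost without C57BL/6J replicate 2 or 3, DBA/2J replicate 1 or 2, or DBA/2J 6 h control replicate 2, which shares the fit (adjusted p from 0.0509 to 0.161). In normoxia-hyperoxia, DBA/2J was lower for 4 genes, with 11.3% of all genes called lower. They were Scnn1g (-1.16, edgeR adjusted p = 0.000992), Scnn1b (-0.67, edgeR adjusted p = 0.0139), Hsd11b2 (-0.61, edgeR adjusted p = 0.0168) and Aqp3 (-0.52, edgeR adjusted p = 0.00238). Hsd11b2 was lost without C57BL/6J normoxia-hyperoxia replicate 3 (-0.51, adjusted p = 0.0664) or DBA/2J normoxia-hyperoxia replicate 2 (-0.59, adjusted p = 0.0578), and Scnn1b without C57BL/6J replicate 3, DBA/2J replicate 1 or DBA/2J replicate 3 of that condition (adjusted p from 0.0503 to 0.0601). Aqp3 was the 1 gene of the set called lower in DBA/2J in all 4 conditions.

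Whether the response itself differed between strains was tested with an interaction term. Scnn1a was higher in normoxia than in 24 h controls by 1.61 on the log2 scale in C57BL/6J and by 0.63 in DBA/2J, and the difference of -0.98 passed the test (SE 0.22, edgeR adjusted p = 0.0109), with 6.88% of all genes called in that direction. From normoxia to normoxia-hyperoxia, Scnn1a differed by 0.65 in C57BL/6J and 1.20 in DBA/2J, and this difference of 0.55 passed too (SE 0.14, edgeR adjusted p = 0.0139), with 7.2% of all genes called in that direction. Between normoxia and 6 h controls, Aqp2 differed by 1.35 in C57BL/6J and by 0.10 in DBA/2J, a difference of -1.26 (SE 0.27, edgeR adjusted p = 0.0234), and Scnn1a by -0.28 and -0.80, a difference of -0.53 (SE 0.13, edgeR adjusted p = 0.0431), with 1.81% of all genes called in that direction. Those last 2 were lost in the single fit of all 48 libraries (edgeR adjusted p = 0.156 and 0.161) and in 8 and 9 of the 12 fits without 1 library. For Aqp2 the 4 fits that kept the call were those without C57BL/6J 6 h control replicate 1, DBA/2J 6 h control replicate 3, C57BL/6J normoxia replicate 1 or DBA/2J normoxia replicate 2, and for Scnn1a the 3 were those without C57BL/6J 6 h control replicate 1 or 2 or DBA/2J normoxia replicate 3. No gene of the set passed the interaction test for 24 h against 6 h or for normoxia-hyperoxia against 24 h controls in edgeR, where 0.69% and 1.43% of all genes were called. At an unadjusted p under 0.05 there was 1 of 8 in each, beside 2242 of 16962 and 2658 of 17256 genes tested.

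The counts of called genes on the lists below stand beside the shares of all genes tested. From 6 h to 24 h, 34.7% of all genes were called higher and 37.4% lower. Against 24 h controls, 42.4% were called higher and 39.7% lower in normoxia, and 34.1% higher and 34.1% lower in normoxia-hyperoxia. Of 15 genes on the wider vasopressin and cAMP list, 6 were higher and 8 lower in normoxia than in 24 h controls, and 8 were higher and 5 lower in normoxia-hyperoxia, with median log2 changes of -0.16 and 0.23 beside 0.05 and 0.00 for all genes. In these lists, each gene named with a change was called by edgeR in that comparison unless an adjusted p is given. Avpr1a, the vascular type of vasopressin receptor, fell by 2.63 on the log2 scale from 6 h to 24 h and was 3.13 and 3.02 higher in the oxygen models. Pde1a, a cyclic nucleotide phosphodiesterase, fell by 1.83 over time, was 2.45 and 1.56 higher in normoxia and normoxia-hyperoxia than in 24 h controls, and was -0.87 in normoxia-hyperoxia against normoxia. Ptger3, a prostaglandin E2 receptor that lowers cAMP, fell by 1.84 over time and was 2.03 higher in normoxia-hyperoxia than in 24 h controls. Ptger4, a prostaglandin E2 receptor that raises cAMP, was -2.71 in normoxia against 24 h controls, -2.31 against 6 h controls, and 2.7 in normoxia-hyperoxia against normoxia. In normoxia against 6 h controls, the adenylyl cyclase gene Adcy3 was at -0.86 and the cAMP phosphodiesterase gene Pde4d at -0.66. Prkar2a, a regulatory subunit of protein kinase A, was 0.66 higher in normoxia-hyperoxia than in normoxia.

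Of 18 genes on the aldosterone and sodium transport list, 12 were lower and 2 higher at 24 h than at 6 h. In normoxia 12 were higher and 6 lower than in 24 h controls, and in normoxia-hyperoxia 13 were higher and 2 lower. The median log2 changes were -0.86 over time, 0.88 in normoxia and 1.23 in normoxia-hyperoxia. Nr3c2, the mineralocorticoid receptor gene, fell by 1.20 on the log2 scale over time and was 0.81 and 1.39 higher in normoxia and normoxia-hyperoxia. Sgk1, the aldosterone-induced kinase that keeps the sodium channel at the membrane, was lower in normoxia (-0.30) and higher in normoxia-hyperoxia (1.83) than in 24 h controls. Nedd4l, the ubiquitin ligase that removes the channel, did the same, with -0.44 and 1.09. Fxyd4, a regulator of the sodium pump in the collecting duct, was 0.96 and 1.61 higher in normoxia and normoxia-hyperoxia. Kcnj1, which encodes the luminal potassium channel ROMK, fell by 2.76 over time and was 3.15 and 3.10 higher in the oxygen models. Usp2, which encodes a deubiquitinating enzyme, fell by 2.07 over time and was 2.67 higher in normoxia than in 24 h controls. Wnk4, a kinase of distal salt transport, fell by 1.80 over time and was 2.05 higher in normoxia-hyperoxia than in 24 h controls, where the related kinase gene Wnk1 was 2.11 higher. Per1, a clock gene that aldosterone induces, was -3.09 in normoxia against 24 h controls, -3.43 against 6 h controls, and 2.74 in normoxia-hyperoxia against normoxia. In that last comparison Edn1, the endothelin gene, was 2.73 higher and St14, a membrane protease gene, 2.19 higher. In normoxia against 6 h controls, St14 was at -1.63 and the transcription factor gene Zbtb16 at -2.38.

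Of 12 principal cell identity genes, 9 were higher and 0 lower in normoxia-hyperoxia than in 24 h controls, while in normoxia 4 were higher and 4 lower, with median log2 changes of 0.97 and 0.14. The share of 4 in 12 called higher in normoxia did not exceed that of all genes, 42.4%. Gata3, a transcription factor of the collecting duct, stood at 0.10 in normoxia (edgeR adjusted p = 0.323) and was 1.26 higher in normoxia-hyperoxia. Wnt7b, a collecting duct Wnt ligand, was -2.86 in normoxia against 24 h controls, -2.24 against 6 h controls, and 2.40 in normoxia-hyperoxia against normoxia. Hoxd8, a homeobox gene, fell by 1.77 over time and was 1.78 and 2.03 higher in the oxygen models. Npnt, which encodes the matrix protein nephronectin, fell by 1.17 over time and was 1.16 higher in normoxia than in 24 h controls. Gata2, a second GATA factor, fell by 1.08 over time and was at -1.01 in normoxia against 6 h controls. Ehf, an Ets family transcription factor, was at -0.95 in normoxia against 6 h controls, 1.37 higher in normoxia-hyperoxia than in 24 h controls, and 1.23 higher than in normoxia. Hes1, a target gene of Notch signalling, was 1.37 higher in normoxia-hyperoxia than in normoxia.

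Other tubule segments moved at the same time. The 8 intercalated cell markers, the 6 markers of the loop of Henle and the 6 of the distal convoluted and connecting tubule were all lower at 24 h than at 6 h and all higher in both oxygen models than in 24 h controls. The 8 proximal tubule markers were all lower at 24 h and all higher in normoxia, but 7 of 8 were lower in normoxia-hyperoxia than in 24 h controls and 8 of 8 lower than in normoxia, where 36.5% of all genes were called lower. The summed level of the 8 principal cell genes was 337 to 492 CPM in C57BL/6J 24 h controls, 1400 to 1450 CPM in normoxia and 1880 to 2230 CPM in normoxia-hyperoxia. In the same groups the intercalated markers summed to 200 to 252, 1060 to 1170 and 1160 to 1910 CPM, the distal and connecting tubule markers to 1360 to 2560, 6310 to 8410 and 9690 to 15200 CPM, and the proximal markers to 408 to 629, 7150 to 10200 and 183 to 231 CPM. Against 24 h controls, normoxia-hyperoxia slices also had 5 of 6 immune, 3 of 5 endothelial and 3 of 4 podocyte markers higher and 1, 1 and 0 lower. Normoxia slices had 4, 2 and 0 of them higher and 1, 2 and 3 lower, beside 42.4% of all genes called higher and 39.7% lower. The part of these other cell types in the changes of the 8 genes was not tested.

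In normoxia the strains also differed in these markers. DBA/2J was lower than C57BL/6J in 6 of 8 intercalated, 5 of 6 loop and 4 of 6 distal and connecting tubule markers, and higher in 8 of 8 proximal markers, beside 18.5% of all genes called lower and 28.3% called higher. The loop markers summed to 13100 to 20800 CPM in C57BL/6J normoxia and 5120 to 7460 CPM in DBA/2J normoxia. In 6 h controls, the distal and connecting tubule markers had mean sums of 10300 CPM for C57BL/6J and 5490 CPM for DBA/2J, the intercalated markers 1100 and 742 CPM, the loop markers 15200 and 9860 CPM and the proximal markers 5080 and 7890 CPM. At 24 h the means of C57BL/6J and DBA/2J controls were 1990 and 2090 CPM, 232 and 194 CPM, 4170 and 3490 CPM, and 547 and 1720 CPM in the same order. In normoxia-hyperoxia they were 13000 and 8430 CPM, 1530 and 1100 CPM, 16800 and 14800 CPM, and 214 and 831 CPM. The proximal sum was thus higher in DBA/2J in all 4 conditions, and the distal and connecting sum was lower in DBA/2J in all but the 24 h controls. The mitochondrial share of the counts in normoxia differed as well, with means of 23.9% in C57BL/6J and 12.3% in DBA/2J normoxia. The part of these markers and of that share in the strain differences above was not tested. Urothelial markers were close to absent: their sum did not exceed 6.17 CPM in any control or oxygen-model library, and Upk2 was at 0 in both 6 h control groups and in both 24 h control groups. Slc14a2, the urea transporter of the inner medullary collecting duct, had 0 to 11 counts in the control libraries, and up to 98 in C57BL/6J normoxia, 130 in C57BL/6J with cyclosporin A at 6 h and 95 in DBA/2J with cyclosporin A at 24 h.

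**Figure D4:**
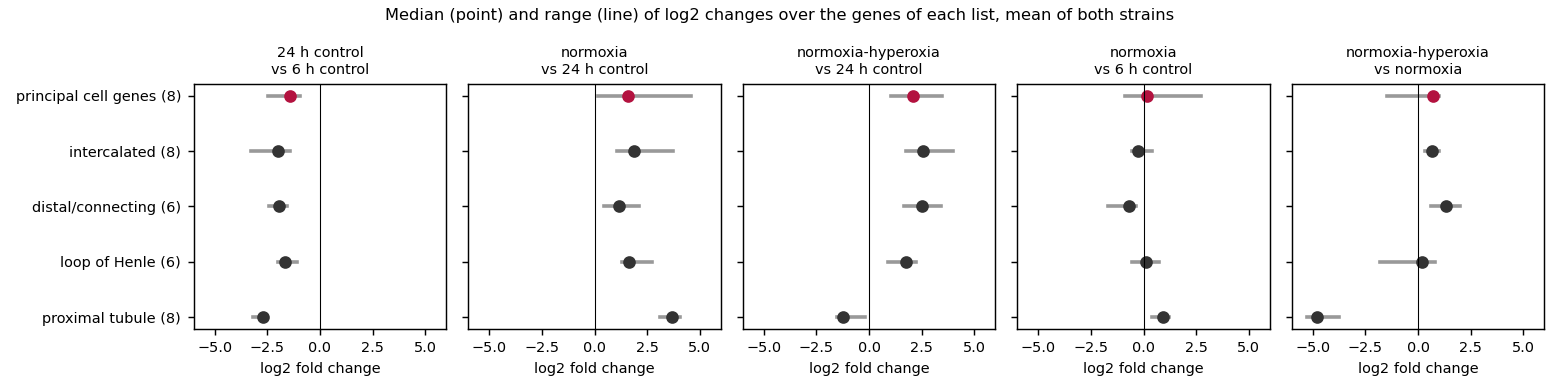
Median (point) and range (line) of the log2 change over the genes of each list, as the mean of both strains, in 5 comparisons, with the number of genes in parentheses. The principal cell, intercalated, distal and connecting, and loop medians lie at 1.15 or above in both oxygen models against 24 h controls, while the proximal median is 3.67 in normoxia and -1.24 in normoxia-hyperoxia.

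Libraries of 1 group also differed among themselves, as an example chosen after the values were seen shows. C57BL/6J normoxia-hyperoxia replicate 2 had the highest Aqp2 of its group (310 CPM) with the highest loop sum (25300 CPM) and the lowest distal and connecting sum (9690 CPM), and it had the lowest Scnn1b (181 CPM) and Scnn1g (163 CPM). Over all 16 groups, the library with the highest Aqp2 also had the highest loop sum in 9. It had the highest distal and connecting sum in 7, the highest proximal sum in 5 and the highest intercalated sum in 3.

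Across the 16 group means of log2 CPM, which share 2 strains and the drug controls, Aqp2 and Avpr2 had a Pearson correlation of 0.97, Aqp2 and Hsd11b2 0.96, and Aqp3 and Scnn1b 0.97. Among 12262 genes, Avpr2 ranked 4 by likeness to Aqp2, Hsd11b2 ranked 9 by likeness to Aqp2, Aqp2 ranked 114 by likeness to Hsd11b2, and Scnn1b ranked 43 by likeness to Aqp3. The lowest was 0.42, between Aqp4 and Scnn1g, and Aqp2 and Scnn1g had 0.56. Among 12255 other genes, the closest profiles over the 16 groups were Mpnd, Pbxip1 and Cul7 for Aqp2 (0.975 or above), Ucp2, Epha4 and Fry for Aqp3 (0.981 or above), Wdr41, Id4 and Hacd4 for Aqp4 (0.952 or above) and Itgal, Nipal3 and Hoxd9 for Avpr2 (0.974 or above). For the sodium channel they were Pcolce, Efhd1 and Pgam2 for Scnn1a (0.991), Fam222a, Sdk1 and Tle2 for Scnn1b (0.982 or above) and Trpv5 and Nbea for Scnn1g (0.977 or above). Rhbg, Lypd6 and Slc25a23 were closest to Hsd11b2 (0.987 or above).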

How the data were processed

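The values were whole-number counts of reads per gene that the authors deposited for 48 libraries. Per the submitters' processing notes, the tools were bcl2fastq 2.20.0, FastQC 0.11.8, STAR 2.7.9a and featureCounts 1.5.1 with GRCm38. The annotation release and the strand setting were not given in the sources used here. Totals ran from 5619309 to 25137581, and with 3 libraries a group the spread between libraries limits the precision.

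Each comparison was fitted with edgeR 4.0.16 (R 4.3.3, limma 3.58.1) on the 12 libraries it concerns: TMM factors, filterByExpr, robust quasi-likelihood fits per strain and condition, and Benjamini-Hochberg adjustment over all genes tested, called under 0.05. Count ratios had 0.5 added to each count and an exact permutation test within strains. Lengths and symbols came from GENCODE M21. The fits were tested on simulated counts. Alternatives were RLE factors, no filter, DESeq2 1.42.0, a single fit of 48 libraries, a replicate block and leaving out each library. The members, gene lists and tests were chosen with earlier results of these data known. All 8 members are named, as are up to 3 called genes of largest change per pathway list and comparison with a mean log2 CPM of at least 1, 5 further genes (Nr3c2, Sgk1, Nedd4l, Gata3 and Fxyd4) whatever their result, and the 3 nearest profiles per member, of which 1 is not reported here.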

Additional observations from a re-analysis of the deposited data

Results flagged for a closer look

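Responses that differed between the strains by an interaction term of the edgeR fit are listed here, as the DBA/2J minus the C57BL/6J log2 change. For Scnn1a the difference was -0.98 in normoxia against 24 h controls (SE 0.22, edgeR adjusted p = 0.0109), 0.55 in normoxia-hyperoxia against normoxia (SE 0.14, edgeR adjusted p = 0.0139) and -0.53 in normoxia against 6 h controls (SE 0.13, edgeR adjusted p = 0.0431). The normoxia libraries enter all 3 of these values. For Aqp2 it was -1.26 in normoxia against 6 h controls (SE 0.27, edgeR adjusted p = 0.0234), where the DBA/2J normoxia libraries, at 91.4 to 109 CPM, lay within the range of that strain's 6 h controls. The Aqp2 value and the Scnn1a value against 6 h controls did not pass in the single fit of all 48 libraries (edgeR adjusted p = 0.156 and 0.161), nor in 8 and 9 of the 12 fits without 1 library, and the Aqp2 value did not pass with the replicate block (edgeR adjusted p = 0.0591).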

How the results depend on the processing

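The time and oxygen comparisons over both strains kept their counts of called members within 1.5 times under every alternative run, and the strain comparison in normoxia did too. Members called for DBA/2J against C57BL/6J at 24 h were 2 with no filter, DESeq2 or the replicate block, and for the normoxia to 24 h interaction 5 with no filter, 3 with DESeq2, 2 with the block and 2 in the single fit of 48 libraries. For normoxia-hyperoxia to normoxia the interaction called 4 with no filter and 2 with the block or the single fit, for normoxia-hyperoxia to 24 h controls 3 with no filter, and for normoxia to 6 h 5 with no filter, 4 with DESeq2 and 0 in the single fit. Leaving out 1 library gave 0 to 2 members for the strain difference at 6 h and at 24 h, 2 to 4 in normoxia-hyperoxia, 1 to 4 for the normoxia to 24 h interaction, 1 to 3 for normoxia-hyperoxia to normoxia and 0 to 4 for normoxia to 6 h. The cause was not tested. The fit with no filter gave far smaller standard errors (0.125 for Aqp4 in normoxia-hyperoxia against normoxia, 0.661 with the filter) and called Scnn1g in normoxia (0.17, edgeR adjusted p = 0.0295).

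Over all genes, tunicamycin at 24 h had 233 calls, 395 with no filter, 527 with DESeq2 and 78 to 344 without 1 library. The interaction calls were 117 for 24 h against 6 h (817 with no filter, 360 with DESeq2, 71 with the replicate block, 46 to 226 without 1 library), 247 for normoxia-hyperoxia against 24 h (1156, 686, 618, 103 to 524, and 409 in the single fit), 616 for normoxia against 6 h (1536, 1181, 1462, 241 to 1125) and 2955 for normoxia against 24 h (1860 to 2700 without 1 library).

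Replicate numbers were not used as pairs, because the labels do not say that equal numbers mean the same mouse. Same-number pairs had mean r from 0.02 to 0.15, and in no comparison did all 6 exceed 0.1. A sample correlated best with its own number in 6 of 6 cases in normoxia against 6 h. This held in 5 of 6 for tunicamycin at 6 h and for normoxia-hyperoxia against 24 h controls and against normoxia, and in 2 to 4 of 6 elsewhere. These values do not settle whether the numbers pair the samples. With the replicate block, tunicamycin at 24 h called 1 member, Aqp2 (0.44, edgeR adjusted p = 0.0399). The block kept the ratio differences of Scnn1a to Scnn1b (-0.30, 0.49 and 0.43), Scnn1g to Scnn1b (0.36, -0.48 and -0.60) and Aqp3 to Aqp2 (-1.14) but with an exact sign-flip adjusted p of 0.0536, each of them at the smallest unadjusted p that the 64 sign flips allow. It turned the sign of Scnn1g with cyclosporin A at 6 h (-0.004), Aqp4 with tunicamycin at 24 h (-0.005) and Avpr2 in normoxia-hyperoxia against normoxia (-0.013), none of them called.

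Without 1 library, the ratio of Aqp3 to Aqp2 ran from -0.052 to 0.17 for 24 h against 6 h and from -0.80 to -0.45 for normoxia-hyperoxia against 24 h, and Scnn1g to Scnn1b from 0.31 to 0.42 for 24 h against 6 h. Values that crossed 0 without 1 library, none of them called, were as follows. With cyclosporin A at 6 h they were Aqp2 (-0.04 to 0.29), Avpr2 (-0.005 to 0.147), Hsd11b2 (-0.091 to 0.068) and Scnn1g (-0.087 to 0.091), and at 24 h Aqp4 (-0.46 to 0.30), Avpr2 (0.00 to 0.31), Scnn1a (-0.132 to 0.054) and Scnn1b (-0.178 to 0.001). With tunicamycin at 6 h they were Aqp4 (-0.017 to 0.65), Scnn1b (-0.026 to 0.073) and Scnn1g (-0.009 to 0.155), and at 24 h Aqp3 (-0.071 to 0.048), Aqp4 (-0.32 to 0.43), Avpr2 (-0.074 to 0.095) and Scnn1b (-0.03 to 0.15). Avpr2 in normoxia-hyperoxia against normoxia ran from -0.18 to 0.13. The block also ended the calls of Aqp2 (adjusted p = 0.0512) and Hsd11b2 (0.0661) in normoxia-hyperoxia against normoxia, of Aqp4 between strains in normoxia (0.0629) and of the Aqp2 interaction in normoxia against 6 h (-1.25, 0.0591), and it called Aqp4 in normoxia-hyperoxia against normoxia (-1.59, 0.00803), all by edgeR. Arhgap4 overlap limits Avpr2, and low counts limit Aqp4 in controls.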
